A study of Mus musculus with 2 samples.

Results

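The fragments around the intronic heavy chain enhancer Emu and the JH segments of the immunoglobulin heavy chain (Igh) locus were followed across the locus in unstimulated splenic B cells from C57BL/6 mice. The measurement was 5C, in which chromatin is fixed with formaldehyde, cut with HindIII and re-ligated, and each junction between a forward-primer and a reverse-primer fragment is amplified and counted. Viewpoint fragments were those with a midpoint inside a 7 kb window of mm9 chromosome 12 set to the approximate position of Emu, the JH segments and the nearest D segment. The rule found 4 neighbouring fragments. From the constant-region side to the variable side these were F80 (114664064 to 114664823), R81 (114664824 to 114667095), F82 (114667096 to 114667886) and R83 (114667887 to 114670119), where F and R name the primer type. Together they cover 6056 bp without a gap. Every primer pair with at least 1 end in this set was a member, which gave 408 of the 10584 pairs of the matrix. Both forward fragments were assayed with 108 reverse partners each and both reverse fragments with 98 forward partners each. Of the members, 5 joined fragments that share a HindIII site and are described apart, which left 403.

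Emu lies in the intron between the JH segments and the first constant-region gene, Ighm, and drives transcription of the rearranged locus. In B cells it is known to contact the 3' regulatory region, a cluster of enhancers beyond Igha, the last constant-region gene, that supports heavy chain expression and class switching. On the other side lie the D segments, the insulating CTCF sites called IGCR1 and then the VH segments. V(D)J recombination joins VH, D and JH segments and removes the DNA between them. The distances used here are those of the unrearranged mm9 map. A splenic B cell carries at least 1 rearranged copy, on which part of the D and JH sequence is lost.

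There was 1 group of 2 libraries from unstimulated cells, selected as CD43-negative with magnetic beads and described by the submitters as biological replicates. No allele, transgene or treatment was named, the animals' age was not given in the labels, and no condition contrast exists to be tested, so all comparisons below are between fragments and are descriptive. DNA contact counts hold no expression markers, so the cell type could not be checked against them. Replicate 1 held 16067416 counts and replicate 2 held 15096402. Reads carried no stated molecular identifiers. Partner fragments were grouped into approximate intervals named after the gene segments thought to lie there. No annotation of mm9 was used, so the edges of these intervals are rough and no single fragment was assigned to a gene or enhancer.

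Fragments that touch each other gave most of the counts. The pairs that share a HindIII site made up 91.9% ± 0.590 (SD, n = 2) of the counts of F80, 92.0% ± 0.421 of R81, 98.5% ± 0.0825 of F82 and 92.2% ± 0.946 of R83. F82-R81 had 1510088 counts in replicate 1 and 1644784 in replicate 2, the highest of all 81 such pairs in the matrix. F80-R81 had 627084 and 703264, F82-R83 had 460250 and 449724, and F84-R83 had 293692 and 268252. Each of these lay far above the median of the 81 pairs, 32696 in replicate 1 and 27906 in replicate 2. F80-R79, the junction at the constant-region edge of the window, was low by contrast, with 13452 and 11529 counts and rank 62 of 81 in both libraries. Uncut or re-joined chromatin can give products in such pairs that cannot be told apart from a contact in these counts. Whether it does so in a given pair depends on the primer positions, which were not known here. The totals, shares, interval medians and ratios below leave pairs that share a site out. The expected counts, and calls given over all pairs or all 408 members, include them.

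Without these pairs the members held 5.69% ± 0.934 (SD, n = 2) of the remaining counts, and the 4 fragments differed widely. R81 had 177093 counts in replicate 1 and 211082 in replicate 2, which ranked 8 and 6 among the 108 reverse primers. R83 had 57976 and 66515, with ranks 31 and 26. F80 had 59567 and 59417, with ranks 31 and 24 among 98 forward primers, and F82 had 28531 and 32846, with ranks 58 and 50. The median count per partner was 772 and 894 for R81, 264 and 275 for R83, 113 and 130 for F80 and 107 and 110 for F82. R81 was therefore the high fragment of the set in both libraries, and F82, its direct neighbour, was the lowest. A difference in the recovery of a primer and a difference in the contacts of a whole fragment cannot be told apart in these totals. Nor can a difference in the copies of a fragment left after rearrangement, which was not measured.

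The share of counts on the constant-region side differed between the fragments of the window. The constant-region side received 78.9% and 73.9% of the counts of F80 in replicates 1 and 2, 62.3% and 66.5% of those of R81, 59.8% and 55.5% of those of F82 and 39.3% and 38.8% of those of R83. The values of both libraries overlapped neither between F80 and F82 nor between R81 and R83. Partners over 1 Mb away received 7.70% ± 0.677 (SD, n = 2) of the counts of F80 and 29.7% ± 2.52 of those of R83, with R81 at 17.0% ± 0.625 and F82 at 15.0% ± 1.72 between them. Forward and reverse viewpoints were measured against different partner fragments, so the comparisons of F80 with F82 and of R81 with R83 are the direct ones. The shares were not adjusted for distance, and near partners weigh in them. Partners under 50 kb away held 46.8% of the counts of F80, 32.0% of F82, 31.6% of R81 and 27.1% of R83 (means).

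**Figure D1:**
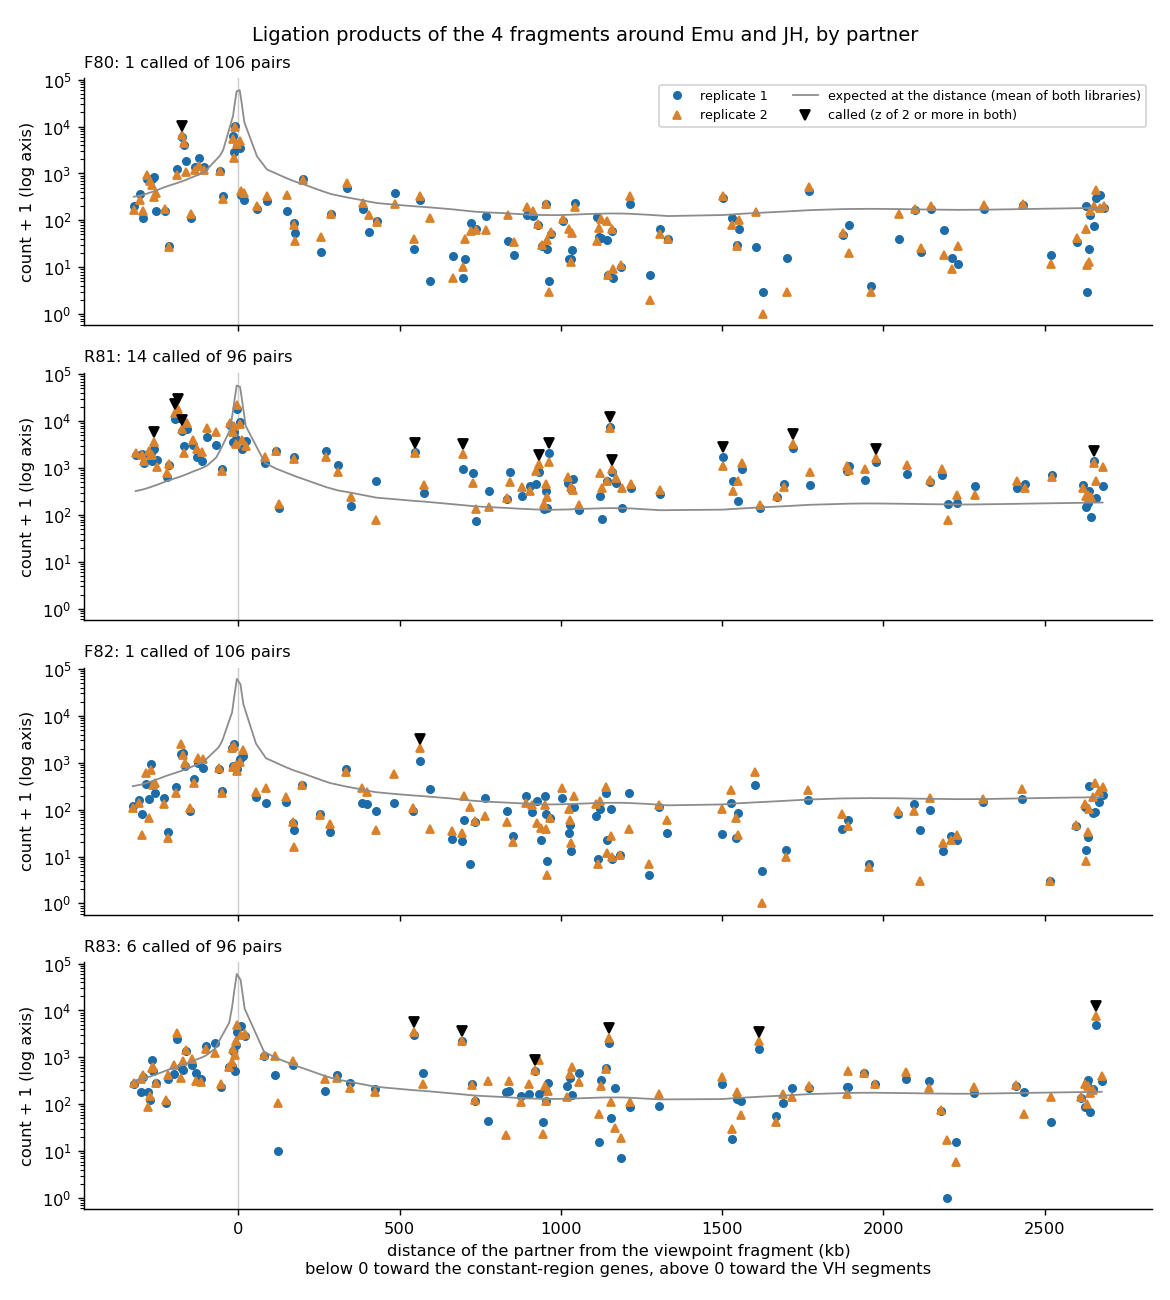
Counts plus 1 (log axis) of each partner of F80, R81, F82 and R83 against its distance from the viewpoint fragment in kb, with pairs that share a site left out; circles are replicate 1, triangles replicate 2, the grey line the count expected at that distance and black arrowheads the called pairs. R81 lies above the line at most distances and has 14 called pairs, R83 has 6 that stand out singly on the variable side, and F80 and F82 have 1 each.

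In the 3' regulatory region, 173 to 219 kb away, the 4 fragments differed widely. What a pair should hold at its distance, the expected count, was read off a LOWESS curve of counts against log10 distance, made for each library with all 10584 pairs. The median count over expected in this interval was 13.0 and 17.9 in replicates 1 and 2 for R81 (15.4 ± 3.50, SD, n = 2, 4 partners). It was 5.22 and 5.85 for F80 (5.54 ± 0.444, 2 partners), 1.35 and 2.16 for F82 (1.76 ± 0.571, 2 partners) and 0.804 and 1.01 for R83 (0.909 ± 0.149, 4 partners). Pairs with no viewpoint end at the same distances had medians between 0.279 and 0.374. All 4 fragments thus lay above the median of such pairs. The 2 toward the constant-region side lay highest. The libraries overlapped neither between F80 and F82 nor between R81 and R83, which are the comparisons over the same partners. The partners in this interval that were in called member pairs, by the rule given below, also had raised medians in pairs with no viewpoint end. These were 3.07 for R33, 2.10 for F31, 1.49 for F28 and 0.616 for F34. F25 and R29 were in no called member pair and are not among these values. Over all pairs with no viewpoint end the median was 0.440. How far the level of the partners accounts for values above the background, as for F82 and R83, was not tested.

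The partners inside this interval behaved unequally. F31 (114477117 to 114480873) had 11975 counts with R81 in replicate 1 and 18423 in replicate 2, where 664 and 602 were expected. F28 (114465909 to 114474052) had 10915 and 14654 with R81, and F34 (114491123 to 114493851) had 6268 and 6739. F25 (114449888 to 114450784), at the far edge, had only 1156 and 1206, or 2.16 ± 0.210 times the expected count (SD, n = 2).

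With R83, just 3.04 kb from R81, the same fragments were much lower. F31 had 2492 and 3276 counts with R83, F28 had 450 and 677, F34 had 626 and 366 and F25 had 352 and 429. For F28 the drop from R81 to R83 was 4.60 in replicate 1 and 4.43 in replicate 2 on the log2 scale, and for F31 it was 2.26 and 2.49. Each of the 4 partners was higher with R81 in both libraries.

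The forward fragments gave the same order with other partners. R33 (114486613 to 114491122), which shares a HindIII site with F34, had 6050 and 6510 counts with F80 and 1551 and 2473 with F82. R29 (114474053 to 114474922) had 1249 and 909 with F80 and 306 and 227 with F82. F80 was higher than F82 for both partners in both libraries, as for 37 of all 105 common partners. The fragments next to the window did not continue this order evenly. The median count over expected in the interval was 5.94 ± 0.117 (SD, n = 2) for F78, 0.986 ± 0.0507 for R79, 1.76 ± 0.188 for F84 and 0.428 ± 0.0174 for R85.

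Pairs were called where z, the residual from the distance fit divided by its local spread, was 2 or more in both libraries. This call rule took 153 of all 10584 pairs (1.45%), 129 of the 10176 with no viewpoint end (1.27%) and 24 of the 408 members (5.88%). Among pairs that do not share a site it took 148 of 10503 (1.41%) and 22 of 403 members (5.46%): 14 with R81, 6 with R83 and 1 each with F80 and F82. A further 11 members reached z of 2 in only 1 library. F80-R81 and F82-R81 were the called members that share a site. In the 3' regulatory region the called pairs were F28-R81, F31-R81, F34-R81 and F80-R33. One further pair on the constant-region side was called, F18-R81 at 260 kb, with 2573 and 3594 counts.

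The switch and constant-region genes between the 3' regulatory region and Ighm contain the sites where class switching exchanges one antibody class for another. In the Igha and Ighe interval the median count over expected was 7.14 for R81, 1.94 for F80, 1.46 for R83 and 1.28 for F82, as means of both libraries. F38-R81 reached 6725 and 9040 counts, with z of 1.94 and 2.95, and so missed a call in replicate 1. In the Ighg2c and Ighg2b interval the medians were 2.36 for R81, 1.66 for F80, 0.849 for F82 and 0.430 for R83. In the Ighg1 and Ighg3 interval R81 had 2.74 and 5.33 in replicates 1 and 2, a spread that leaves its level there imprecise, and the other fragments had 0.655 to 1.26. No pair in these intervals was called.

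Toward Ighd and Ighm, which are transcribed together in resting B cells, partners lie within about 53 kb. The expected counts there also contain the very high pairs that share a site, so counts are given. F78 (114659959 to 114662158), beyond R79, had 18133 and 22448 counts with R81 at 4.90 kb but 1873 and 2266 with R83 at 7.94 kb. F68, at 25.1 kb from R81, had 8110 and 9169 counts with R81 and 631 and 627 with R83 at 28.2 kb. R75 had 10299 and 9977 with F80 at 10.1 kb and 2519 and 2297 with F82 at 13.1 kb. R79 had only 729 and 659 counts with F82 at 4.38 kb, against 3478 and 4989 for F80-R83 at 4.56 kb. All 6 forward partners in this interval were higher with R81 than with R83 in both libraries, as were 75 of 95 common partners. All 5 reverse partners that do not share a site were higher with F80 than with F82, against 37 of all 105.

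On the side of the D segments and IGCR1 the order was not kept. F91 (114686568 to 114691293) had 3857 and 3003 counts with R81 at 23.0 kb and 2915 and 3081 with R83 at 19.9 kb. F86 had 2578 and 4043 with R81 and 4739 and 3062 with R83, and the libraries disagree on which is higher. F103, at the far end of the interval, had 1301 and 1689 with R81 and 1045 and 1150 with R83. R90 had 266 and 376 counts with F80 and 1423 and 1883 with F82, at 18.8 and 15.7 kb, so here F82 was the higher of the forward fragments. R85 showed the same, with 338 and 422 for F80 and 1198 and 1032 for F82. Of the 4 reverse partners, R85, R90 and R94 were higher with F82 in both libraries and R106 with F80, although R94 and R106 had at most 332 counts with either. None of the pairs in this interval that do not share a site was called.

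**Figure D2:**
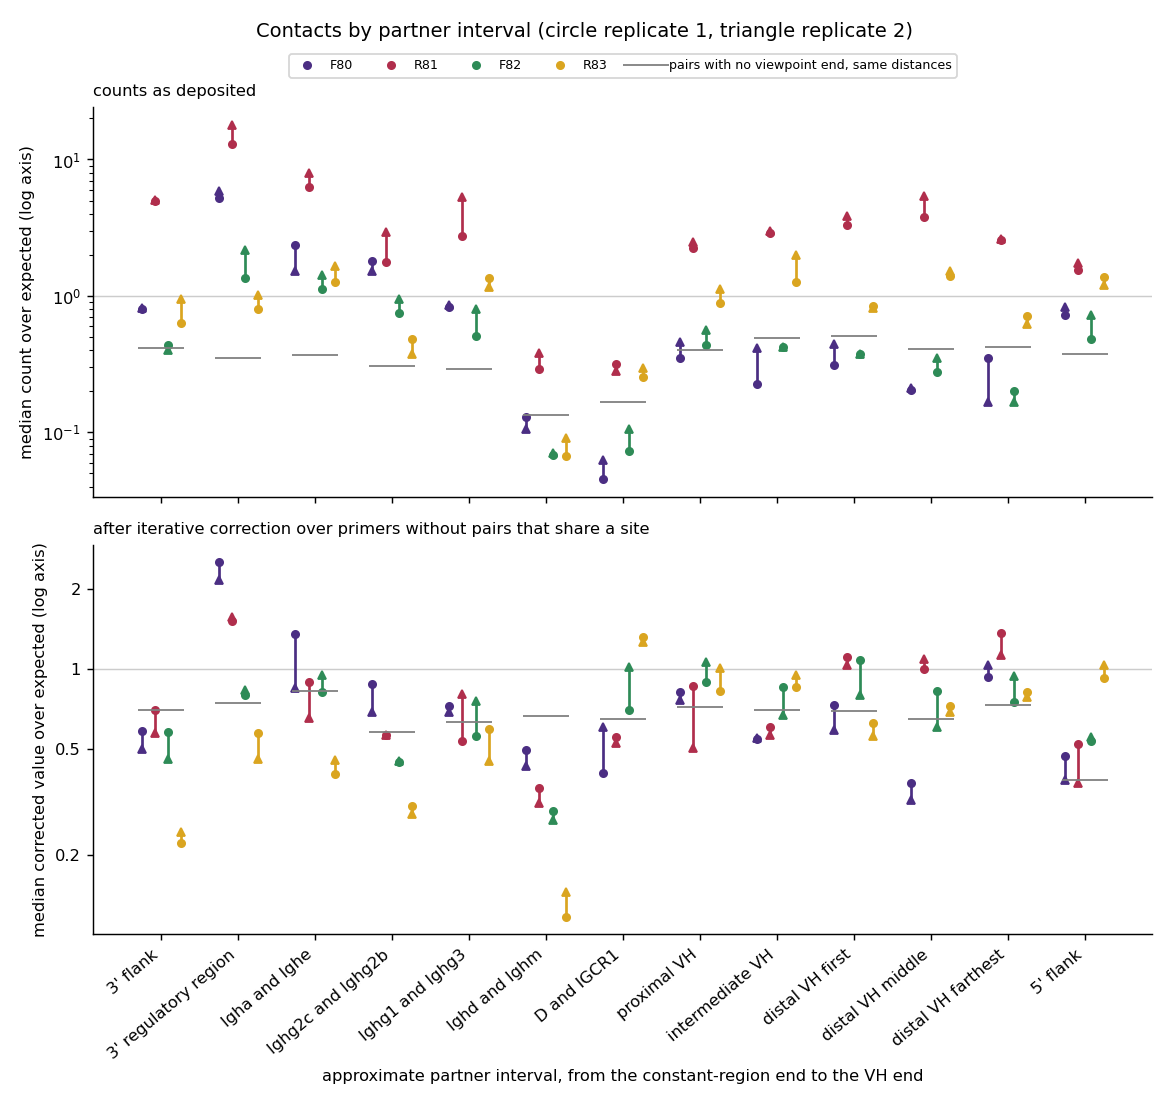
Median value over expected (log axes) of each viewpoint fragment in 13 approximate partner intervals, from counts as deposited (top) and after iterative correction over primers (bottom); circles are replicate 1, triangles replicate 2, and grey bars pairs with no viewpoint end at the same distances. In the 3' regulatory region R81 and F80 are highest in both panels, and R83 is lowest in both.

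The long stretch of VH segments held 15 of the 22 called pairs, and 2 more lay in the flank beyond them. Most of the 403 members that do not share a site also lie in this stretch. Its share of called pairs is therefore near the 5.46% called among all 403. R81 was raised over most of this stretch rather than at single fragments. Its median count over expected was 2.36 in the proximal, 2.95 in the intermediate, 3.59, 4.57 and 2.58 in the first, middle and farthest distal VH intervals, as means of both libraries. Pairs with no viewpoint end had at most 0.504 at these distances. R83 had 1.01, 1.64, 0.830, 1.46 and 0.666 in the same intervals. F80 and F82 had 0.185 to 0.498, or 0.438 to 1.23 times the value of pairs with no viewpoint end. The level of R81 was not particular to this stretch: in the 3' flank its median was 4.98, above each of its VH values. After iterative correction without pairs that share a site, the VH medians of R81 were 0.688, 0.586, 1.08, 1.05 and 1.25 in the same order. Pairs with no viewpoint end then had 0.713, 0.706, 0.701, 0.655 and 0.734.

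The highest of the VH contacts was F415 (115816276 to 115822016), 1.15 Mb away, with 7619 and 7178 counts with R81 and 1979 and 2587 with R83, where 143 and 137 were expected for R81. The nearest forward fragments on either side did not share this level: F412-R81 had 542 and 526 counts, and F419-R81 had 809 and 951. F233 (115211655 to 115215965) had 2181 and 2068 counts with R81 and 2971 and 3499 with R83. F272 (115362252 to 115363989) had 934 and 2009 with R81 and 2207 and 2245 with R83. F233, F272 and F415 were the only partners called with more than 1 viewpoint. R81 and R83 had 95 partners in common that share a site with neither, of which 14 were called with R81, 6 with R83 and 3 with both.

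The other called pairs of R81 on this side were F334 (825 and 1209 counts), F346 (2137 and 1361), F419, F501 (1733 and 1124), F556 (2730 and 3283), F634 (1327 and 1611) and F837 (1412 and 1307). They lay between 934 kb and 2.65 Mb from R81. Counts of F501 and F346 differed between libraries by more than those of F556 or F837. The single called pair of F82 joined R235 (115225314 to 115233376), with 1080 and 2050 counts at 562 kb. F80 had no called pair toward the VH segments, and its highest there by count over expected was R571, with 421 and 519 counts, or 2.57 and 3.13 times the expected count.

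R83 had 3 called pairs that R81 lacked. F842 (117325410 to 117328516), in the flank past the VH segments and 2.66 Mb away, had 4923 and 7665 counts with R83 and 231 and 542 with R81. Its neighbours were low with R83, with 211 and 202 counts for F837 and 311 and 399 for F850. F526 (116282495 to 116284504) had 1510 and 2219 counts with R83 and 140 and 160 with R81. Its neighbour F517 had 116 and 57 counts with R83, and F542 had 56 and 40. F329 had 522 and 540 counts with R83, just above the threshold with z of 2.03 and 2.21, and 454 and 866 with R81. So F842 and F526 were high with 1 of these fragments and not with the other in both libraries, while F329 was not. F842 and F526 are single fragments whose neighbours were not raised, and whether such a pair comes from a contact or from its primers was not tested.

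**Figure D3:**
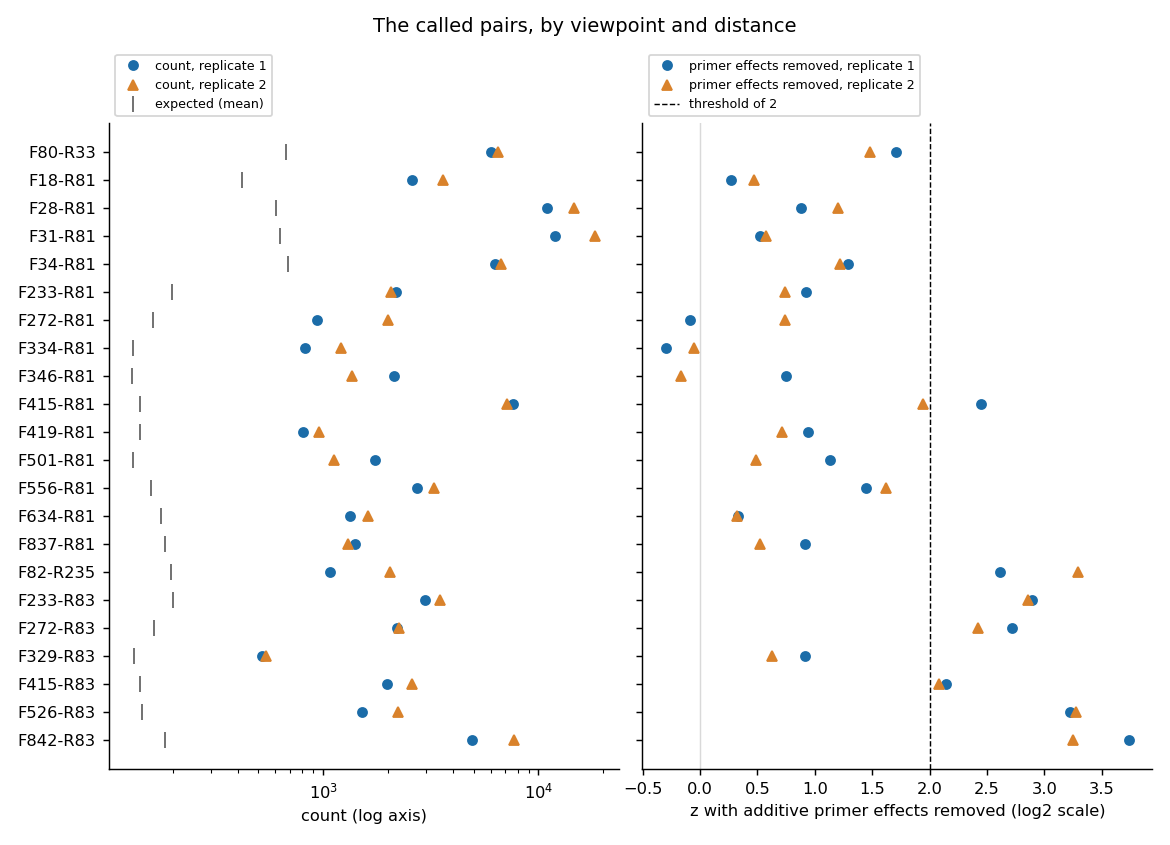
The 22 called pairs that do not share a site, by viewpoint: counts in both libraries and the expected count (left, log axis) and z after removal of additive primer effects (right, dashed line at the threshold of 2). Counts of all 22 lie above the expected count in both libraries, and on the right 6 pass the threshold in both, 5 of them with R83 and 1 with F82.

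The called partners differed in what they did away from the window. R33 was called in 19 of its 95 pairs with no viewpoint end and F31 in 16 of 106 (15.1%), where 126 of 10100 such pairs were called in all (1.25%). F28, F233, F329, F334 and F415 each had 5 such calls, R235 had 6 and F556 had 8. F842 and F526 had none among 106, too few pairs to set apart from the 1.25% of all such pairs. Their medians of count over expected in these pairs were 0.681 and 0.357, where the median over all such pairs was 0.440. The contacts of R81 with F31 and of F80 with R33 thus joined fragments that were called in many other pairs.

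A comparison of neighbouring fragments over the same partners takes out differences between partner primers, since each partner is on both sides of the ratio. A difference between the viewpoint primers moves all ratios alike. The ratios were not adjusted for distance. R81 and R83 lie 3.04 kb apart and F80 and F82 lie 3.05 kb apart, which weighs most for near partners, as in the Ighd and Ighm and the D and IGCR1 intervals. With 1 added to each count, the median log2 ratio of R81 over R83 was 1.87 in replicate 1 and 1.57 in replicate 2 over 95 partners (1.72 ± 0.21, SD, n = 2). R81 was higher for 75 partners in both libraries, R83 for 7. The ratios repeated between libraries with Spearman's rho of 0.68 over the 95 partners, which share their libraries and primers. For F80 over F82 the median was 0.19 and 0.065 over 105 partners (0.13 ± 0.090), with F80 higher for 37 partners, F82 for 30 and rho of 0.46.

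Around these medians the ratios differed between partners on the 2 sides of the locus, which also differ in distance. On the constant-region side R81 was higher than R83 for all 26 partners in both libraries, with a median log2 ratio of 2.43 ± 0.11 (SD, n = 2). On the variable side it was higher for 49 of 69 and R83 for 7, with a median of 1.23 ± 0.12. F80 over F82 had a median of 0.87 ± 0.34 over 24 partners on the constant-region side, with F80 higher for 18 and F82 for 1. On the variable side its median was -0.16 ± 0.0034 over 81 partners, with F80 higher for 19 and F82 for 29. The 2 comparisons use different viewpoint fragments and different partners, and both shifted the same way over partners not matched for distance.

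By interval, R81 over R83 stood 1.35 ± 0.60 above its overall median in the 3' regulatory region and 0.96 ± 0.11 above it in the Ighd and Ighm interval (SD, n = 2). Its difference from the median was -1.36 ± 0.27 in the D and IGCR1 interval and -0.95 ± 0.074 in the intermediate VH interval. F80 over F82 stood 1.72 ± 0.12 above its median in the 3' regulatory region and 1.47 ± 0.17 above it in the Ighd and Ighm interval. The 3' flank beyond the 3' regulatory region shifted the same way, by 0.84 ± 0.16 for R81 over R83 and 0.44 ± 0.0027 for F80 over F82. In the D and IGCR1 interval the difference of F80 over F82 from its median was -1.16 and -0.84 in replicates 1 and 2. The shift did not hold over all of the variable side: R81 over R83 was 0.52 ± 0.11 above its median in the farthest distal VH interval and 0.38 ± 0.15 above it in the first. At 100 to 320 kb, where both sides can be set against each other, only 5 and 6 partners lie on the variable side. There R81 over R83 had medians of 2.47 ± 0.17 on the constant-region side and 1.82 ± 0.96 on the variable side. F80 over F82 had medians of 0.75 ± 0.50 on the constant-region side and 0.83 ± 0.25 on the variable side, and neither ratio differs between sides beyond the spread of the libraries.

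**Figure D4:**
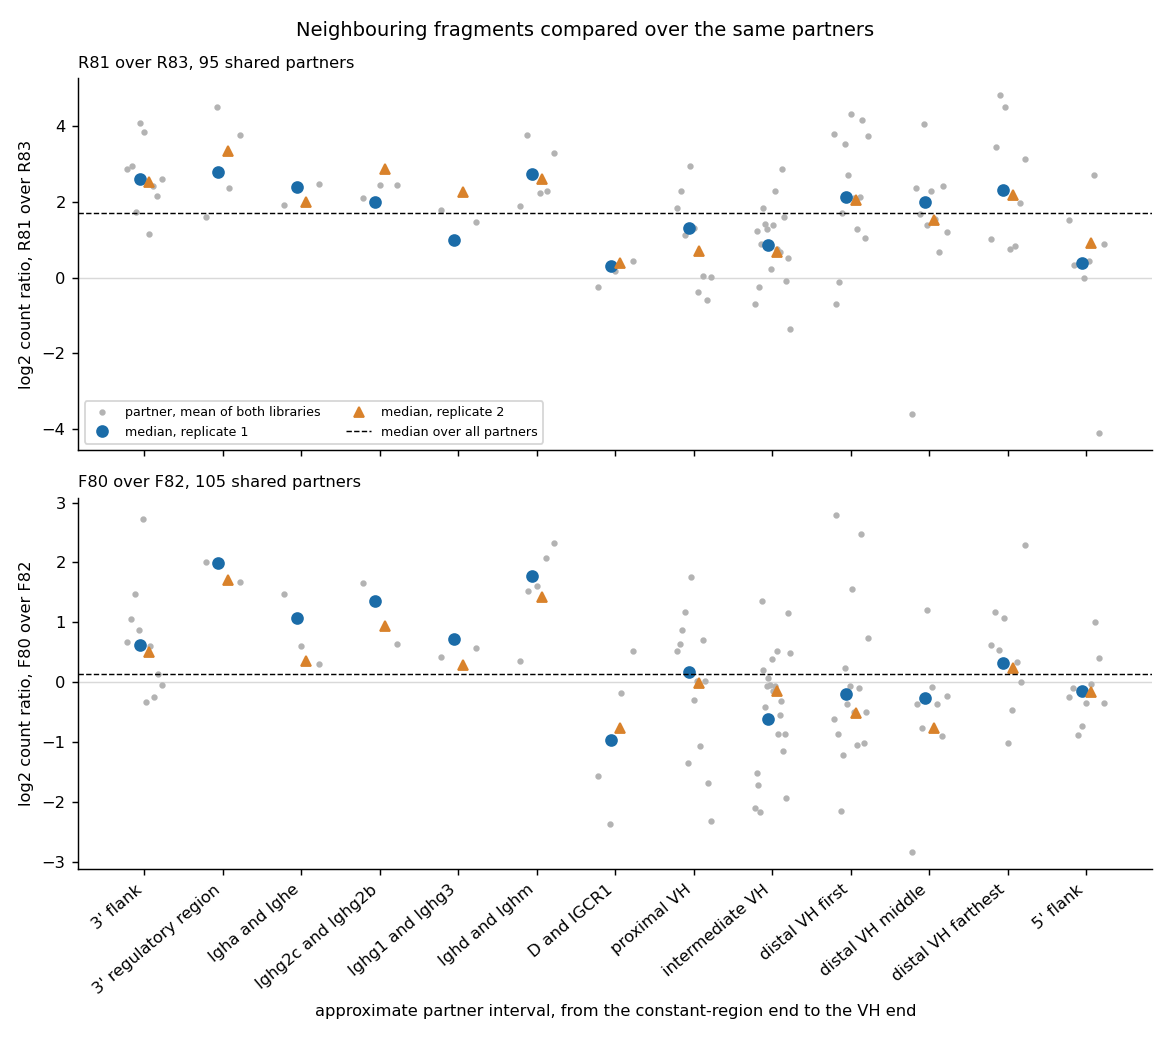
Log2 count ratios of R81 over R83 (top, 95 partners) and of F80 over F82 (bottom, 105 partners) by approximate partner interval; grey points are partners (mean of both libraries), circles and triangles the medians of replicates 1 and 2, and the dashed line the median over all partners. Both ratios are above their dashed line in the 3' flank, the 3' regulatory region and the Ighd and Ighm interval. Both are below it in the D and IGCR1 interval.

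The same shift was measured for every pair of consecutive primers of 1 type along the locus, a comparison added after these values were seen. The tilt is the median log2 ratio over partners on the constant-region side minus that on the variable side, for partners at least 100 kb away and at least 5 partners a side. It was 0.98 and 1.37 in replicates 1 and 2 for R81 over R83 and 1.25 and 0.66 for F80 over F82. Side and distance cannot be told apart in these 2 tilts. Partners of F80 reach 324 kb on the constant-region side and 2.68 Mb on the variable side. At 100 to 320 kb the medians of F80 over F82 were 0.75 ± 0.50 and 0.83 ± 0.25 on these sides. Among 163 consecutive pairs the median tilt was 0.075, and R81 over R83 ranked 4 and F80 over F82 ranked 11. Tilts with a higher mean than that of F80 over F82 were also found elsewhere, such as 1.17 and 0.95 in replicates 1 and 2 for F34 over F36, whose midpoints are 6.69 kb apart. Fragments beside the window had tilts of either sign: R79 over R81 had 0.48 ± 0.062, R83 over R85 had -0.60 ± 0.11 and F78 over F80 had -0.80 ± 0.48 (SD, n = 2). The highest tilt was 2.09, for R161 over R171, whose midpoints are 49.9 kb apart.

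**Figure D5:**
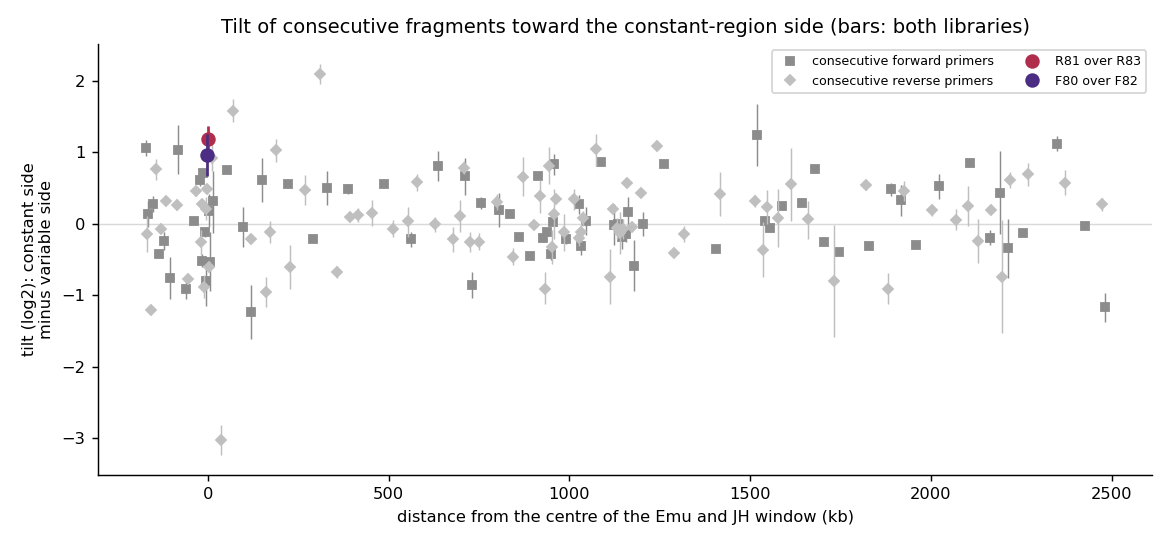
Tilt toward the constant-region side (log2) of 163 pairs of consecutive primers of 1 type against their distance from the centre of the Emu and JH window (kb); squares are forward and diamonds reverse primers, large circles R81 over R83 and F80 over F82, and bars join both libraries. The 2 large circles lie near 1, in the upper part of the range from -3.03 to 2.09. Partners on the 2 sides were not matched for distance.

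None of the 14 called pairs of R81 stayed called under any of the 4 corrections over primers that were run. Of the 6 called pairs of R83, 5 stayed called with additive primer effects removed and rescaled, 2 after iterative correction without pairs that share a site, 1 with additive effects removed and not rescaled, and 0 after iterative correction with all pairs. With additive primer effects removed from log2(count + 1), 128 of all pairs were called (1.21%) and 8 members (1.96%), of which 6 were among the 22. These 6 were F233-R83, F272-R83, F415-R83, F526-R83, F842-R83 and F82-R235, and the newly called pairs were F377-R83 and F694-R81. After iterative correction over primers without the pairs that share a site, 129 of 10503 pairs were called (1.23%) and 4 members (0.993%): F526-R83, F842-R83, F82-R457 and F694-R81. Such corrections remove any level that a fragment has with all its partners, as R81 had. They kept the order in the 3' regulatory region apart from an exchange of R81 and F80, with corrected values over expected of 2.35 ± 0.241 for F80, 1.55 ± 0.0379 for R81, 0.820 ± 0.0268 for F82 and 0.518 ± 0.0794 for R83 (SD, n = 2). Pairs with no viewpoint end had medians of 0.727 to 0.766 at these distances, so R83 fell below them.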

How the data were processed

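The authors deposited whole-number counts of ligation junctions, 1 matrix of forward by reverse primers for each library, made with my5C and its transpurge step, per the file headers. The submitters' processing notes name Novoalign and mm9. How reads were mapped and filtered, and whether a suffix in the file names stands for a further correction, is not given in the sources used here. No correction for single primers is visible in the counts. Members, intervals and comparisons were chosen with earlier results of these data known.

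Expected counts and z came from LOWESS fits (statsmodels 0.14.6, span 0.2, 0 robustness steps) of the deposited counts on log10 distance between midpoints, per library, zeros included. Iterative correction ran 100 rounds. Additive primer effects were removed from the residuals of log2(count + 1), which were then divided by their local spread. The functions were tested on simulated data. Named pairs were fixed as all called members, pairs that share a site, the 5 partners with the highest count over expected on each side and at least 10 kb away, and partners in the 3' regulatory region; beyond the pairs the rule gives, neighbours of called fragments, the near pairs toward Ighd, Ighm and the D segments, and pairs called only after correction were named after their values were seen. The analysis of consecutive primers and of F80 over F82 was added after the data were seen. Counts cover 2 libraries, whose number limits precision.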

Additional observations from a re-analysis of the deposited data

How the results depend on the processing

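The 22 called members and the calls of R81 (14), R83 (6), F80 (1) and F82 (1) depended most on corrections over primers. Single libraries gave 25 to 30 calls. At a z threshold of 3 there were 12 (7 with R81, 0 with F80, 0 with F82), and at 1.5 R81 had 23. A span of 0.4 left F80 with 0. On the log2 scale there were 14 (8 with R81, 0 with F82), and the median values over expected in the 3' regulatory region became 52.0 for R81, 18.7 for F80, 5.99 for F82 and 3.03 for R83. With additive primer effects removed there were 8 calls (1 with R81, 0 with F80), and these values were 2.15, 3.40, 0.982 and 0.739. Without rescaling, an alternative added after seeing the data, 1 call remained, F842-R83, so that R81, F80 and F82 had 0 and R83 had 1. Iterative correction without pairs that share a site gave 4 calls (1 with R81, 2 with R83, 0 with F80) and values of 1.55, 2.35, 0.820 and 0.518. With all pairs it gave 0 calls with each of the 4 fragments and values of 0.365 for R81, 1.23 for F80, 0.239 for F82 and 0.122 for R83. These corrections remove the level of a whole fragment by construction. R83 stayed the lowest of the 4 in that interval, and F82 the next, under all of these settings.

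The sign of z turned for 8 pairs after iterative correction without pairs that share a site: F18-R81 (-0.10), F28-R81 (-0.46), F233-R81 (-0.027), F272-R81 (-0.19), F329-R83 (-0.13), F334-R81 (-0.30), F346-R81 (-0.40) and F837-R81 (-0.29). With all pairs it turned for these, at -0.45, -0.52, -0.24, -0.69, -0.50, -0.62, -0.62 and -0.38, and for F31-R81 (-0.29), F34-R81 (-0.42), F80-R33 (-0.054), F80-R81 (-0.15), F233-R83 (-0.054), F272-R83 (-0.56), F415-R83 (-0.14), F419-R81 (-0.54), F501-R81 (-0.31) and F634-R81 (-0.28). With additive effects removed it turned for F334-R81, at -0.18 rescaled and -0.035 not. The log2 ratio of R81 over R83 stayed between 1.57 and 1.87 under its alternatives. That of F80 over F82 fell to 0.031 for partners at least 100 kb away. No paired analysis was possible because both libraries belong to 1 group. Few members were at 0: 3 pairs had 0 counts in 1 library and none in both. Low counts were also found, such as 4 and 2 for F80-R345. With additive primer effects removed, z repeated between libraries with Spearman's rho of 0.53 for F80 and 0.54 for F82, against 0.77 for R81 and for R83.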
